A study of Mus musculus with 6 samples.

Results

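Histone genes are described here as 81 of the 22274 genes in the deposited table, chosen by symbol: names that begin as those of the H1f, H2a, H2b, H3c, H3f, H4c, H4f and older Hist series do. The comparison is between livers of C57 mice infected with Ad-Dyrk1b, an adenovirus that overexpresses the mouse kinase gene Dyrk1b, and livers of C57 mice infected with Ad-EGFP, the control adenovirus, with 3 samples in each group. Both groups therefore carried an adenovirus and no uninfected liver was analysed here. The promoter of the viral insert, the dose, the time after infection and the age of the mice were not in the sources used here. Separate mice behind the samples of a group are not stated in the labels, so the p-values measure only the spread between these samples, and part of that may be technical.

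Histones H2A, H2B, H3 and H4 form the protein core around which DNA is wound, and histone H1, the linker histone, binds where the DNA enters and leaves it. Genes of the replication-dependent clusters are switched on when a cell copies its DNA, and their mRNAs usually end in a short stem-loop in place of a poly(A) tail. Variant histones are encoded by genes outside the clusters, make polyadenylated mRNA at any stage of the cell cycle, and replace core or linker histones in cells that no longer divide, such as most hepatocytes of an adult liver.

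By gene annotation, 67 of the 81 genes were replication-dependent cluster genes, 12 were variant genes and 2 (H2bu1-ps and H3f4) were annotated pseudogenes. The cluster genes lie on chromosome 13 (54 genes), chromosome 3 (10), chromosome 11 (2) and chromosome 6 (1). The labels state that mRNA was enriched and do not name the method, so how well tail-less transcripts were captured was not tested. Library totals were 17326516 to 20024888 counts. Dyrk1b itself (ENSMUSG00000002409) had 150.0, 269.8 and 247.8 CPM (counts as a rate of the library total, which was scaled here by TMM factors) in the Ad-Dyrk1b libraries, against 9.04, 11.1 and 9.61 CPM in the Ad-EGFP libraries. Counts do not separate viral from mouse Dyrk1b transcripts, so this checks the labels and not the mouse gene. Hepatocyte markers were present throughout: 9 of them summed to 63750 to 83380 CPM in Ad-Dyrk1b libraries and to 77220 to 84320 CPM in Ad-EGFP libraries, with 0 of 9 called by edgeR (DESeq2 1 lower, and 1 lower at an unadjusted p under 0.05).

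The stem-loop is shown first, because it marks mRNAs that can end without a poly(A) tail. It was found in annotated transcripts (GENCODE M21, build mm10) of 46 cluster genes and of 1 variant gene, H2ax. Each sequence is the transcript strand, 5′ to 3′, and capitals mark the 16-base stem-loop core with its flanks in lower case. The set shows the genes whose values are given in most detail.
H2aw: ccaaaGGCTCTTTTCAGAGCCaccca
H2bu2: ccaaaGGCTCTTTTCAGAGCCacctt
H3c8: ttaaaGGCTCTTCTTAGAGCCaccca
H2ac19: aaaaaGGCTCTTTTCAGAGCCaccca
H1f2: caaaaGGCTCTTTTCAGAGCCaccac
H4c9: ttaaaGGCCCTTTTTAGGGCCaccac
H2ax: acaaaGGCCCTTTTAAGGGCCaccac
The core printed for H2aw, H2bu2, H2ac19 and H1f2 is the commonest form, shared by 26 genes. The core of H3c8 occurred in 1 gene, as did that of H2ax, and that of H4c9 in 2. Many of the transcripts run on past it: 23 cluster genes had 100 or more annotated bases after the stem-loop, among them H2aw with 1643 bases and H1f2 with 840. In H3c8 and H2ac19 the transcript ended 47 and 35 bases after it. A poly(A) signal (AATAAA or ATTAAA in the last 50 bases) was annotated in 17 cluster genes and in 11 of the 12 variant genes.

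Promoters are shown for the cluster genes H2ac6, H2ac20 and H2aw and for the variant gene H3f3b, because the first 3 begin beside a second histone gene that runs the other way, and H3f3b made most of the reads of histone H3. Each is a RefSeq sequence of GRCm38.p6, from 250 bases before to 50 bases after the annotated start, on the strand of the gene. Capitals mark 4 motifs in either direction: the CCAAT box, the TATA box written TATAAA, the octamer ATTTGCAT, and the E2F motif TTTCGCGC.
H2ac6, chr13:23683910-23684209, minus strand: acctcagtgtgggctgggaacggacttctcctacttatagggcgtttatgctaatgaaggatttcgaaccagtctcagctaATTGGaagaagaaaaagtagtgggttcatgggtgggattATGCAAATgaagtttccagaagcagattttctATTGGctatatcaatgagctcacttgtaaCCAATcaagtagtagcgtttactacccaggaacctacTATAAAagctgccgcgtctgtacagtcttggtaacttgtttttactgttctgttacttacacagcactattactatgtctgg
H2ac20, chr3:96220831-96221130, minus strand: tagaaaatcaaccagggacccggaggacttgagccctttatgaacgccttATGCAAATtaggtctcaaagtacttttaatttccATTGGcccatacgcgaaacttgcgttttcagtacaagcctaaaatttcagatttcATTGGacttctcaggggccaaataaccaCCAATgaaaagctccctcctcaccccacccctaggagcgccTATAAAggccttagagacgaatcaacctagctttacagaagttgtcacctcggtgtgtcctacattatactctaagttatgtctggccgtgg
H2aw, chr11:58954435-58954734, plus strand: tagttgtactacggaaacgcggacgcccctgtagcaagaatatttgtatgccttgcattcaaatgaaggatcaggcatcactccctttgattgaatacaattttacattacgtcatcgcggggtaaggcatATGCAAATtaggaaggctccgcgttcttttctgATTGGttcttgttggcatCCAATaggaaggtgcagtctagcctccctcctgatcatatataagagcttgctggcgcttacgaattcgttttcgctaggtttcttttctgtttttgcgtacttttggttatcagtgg
H3f3b, chr11:116024455-116024754, minus strand: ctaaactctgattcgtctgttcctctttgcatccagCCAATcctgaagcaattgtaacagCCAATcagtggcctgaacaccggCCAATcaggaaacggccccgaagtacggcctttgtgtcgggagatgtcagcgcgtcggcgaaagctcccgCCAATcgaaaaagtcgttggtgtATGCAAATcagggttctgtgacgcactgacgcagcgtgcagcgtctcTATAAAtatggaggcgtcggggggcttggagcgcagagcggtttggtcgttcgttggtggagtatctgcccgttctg
Promoter sequences were found for 73 of the 81 genes. The octamer stood in 13 of 61 cluster promoters (21.3%) and in 1 of 11 variant promoters (9.09%, H3f3b), against 1.75% of 27025 promoters in all. CCAAT stood in 85.2% of cluster and 72.7% of variant promoters, against 37.9% of all promoters. TATAAA stood in 57.4% of cluster and 9.09% of variant promoters, against 14.2% of all. TTTCGCGC was found in 14.8% of cluster promoters and in 0 of 11 variant promoters, against 0.318% of all. Genes that start side by side and run opposite ways, such as H2ac12 and H2bc12, can have overlapping windows. A site in such an overlap was counted for both genes. A match describes letters in a window and is not evidence of binding. Of the 13 cluster genes with the octamer, 3 (H2ac6, H2aw and H2bc8) were expressed highly enough to be tested.

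Most histone genes were barely detected in these livers. Of the 81, 30 passed the count filter and were tested, 22 of them cluster genes and 8 variant genes. The remaining 51 had at most 19 counts in any library, and 11 of them had 0 counts in all 6 libraries, which allows up to 0.154 to 0.174 CPM per library for counting error only (3 counts). Through the filter came 21 genes that reached its level of 0.558 CPM (of unscaled library totals) in all 6 libraries, 7 that reached it in at least 1 library of each group but not in all 6, and 2, H2bu2 and H2bc24, that reached it in the Ad-EGFP libraries alone. The tested genes are therefore not a neutral sample of the 81.

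Histone transcripts took a smaller share of the Ad-Dyrk1b libraries. All 81 genes together summed to 1471, 1275 and 1190 CPM in the Ad-Dyrk1b libraries, against 2232, 1792 and 1849 CPM in the Ad-EGFP libraries. The groups did not overlap, and the mean was 1312 ± 144 CPM in Ad-Dyrk1b and 1958 ± 239 CPM in Ad-EGFP (SD over n = 3 each), which is a ratio of 0.670. Before TMM scaling these genes took 0.115% to 0.150% of the counts of an Ad-Dyrk1b library and 0.187% to 0.224% of those of an Ad-EGFP library. Of the 30 genes tested, 10 were lower in Ad-Dyrk1b livers at an adjusted p under 0.05 in edgeR, or 33.3%, against 4.81% of the 13201 genes tested across the table. The 10 include H2bu2, which passed the filter through the Ad-EGFP libraries alone. Of the 30, 1 was higher, or 3.33%, against 7.36% of all genes tested. With Ad-Dyrk1b replicate 2 or 3 left out, or any of the Ad-EGFP libraries, the count of higher genes was 0. Log2 fold changes were below 0 in 28 of the 30, with a median of -0.58, against -0.0050 over all genes tested. Libraries of the 2 groups did not overlap in CPM for 17 of the 30 on the lower side, where 16.7% of all genes did so, and for 1 on the higher side, where 16.8% did. Both the 28 and the 17 include H2bu2 and H2bc24, which passed the filter through the Ad-EGFP libraries alone. Across the table edgeR called 972 genes higher and 635 lower, and limma-trend on log2(FPKM + 1) called 552 higher and 678 lower. On the FPKM scale (fragments scaled by gene length and library size, made by the authors) 10 histone genes were lower and 0 higher by limma-trend. Of the 30 genes, 1 was higher by edgeR at an unadjusted p under 0.05 and 1 by DESeq2.

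**Figure D1:**
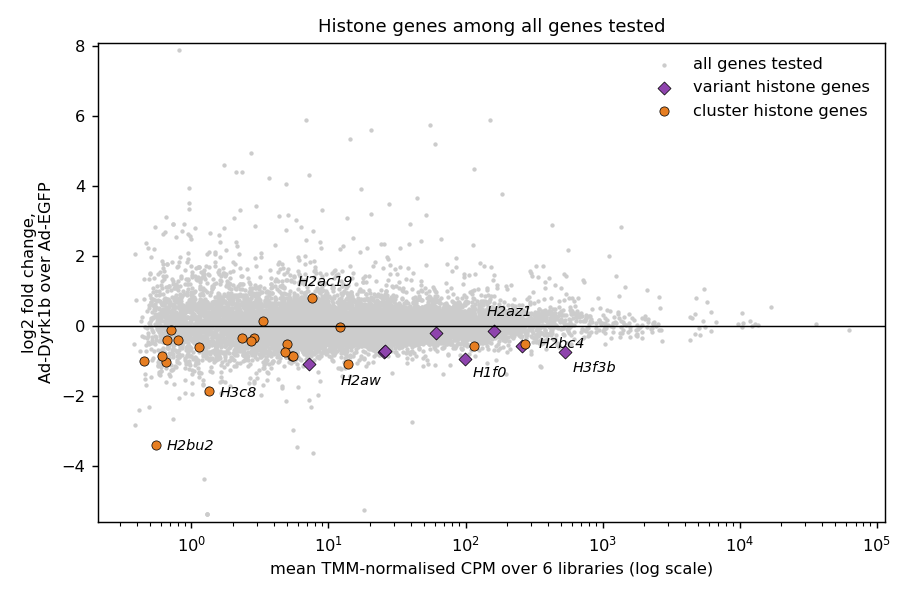
Each point is a gene tested, with its mean TMM-normalised CPM over the 6 libraries on the x axis (log scale, not per length) and its log2 fold change, Ad-Dyrk1b over Ad-EGFP, on the y axis; histone genes are coloured by class. The 8 variant genes all lie below 0, and of the 22 cluster genes 20 lie below 0, with H2bu2 lowest at -3.39 and H2ac19 highest at 0.80. Of the 20, H2bu2 and H2bc24 passed the filter through the Ad-EGFP libraries alone.

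In whole liver, fewer cells of a type and less RNA per cell cannot be told apart. The summed levels of several marker lists also differed between the libraries, and their part in the histone values was not tested. The 6 erythroid markers summed to 870.3, 1118 and 3836 CPM in Ad-Dyrk1b libraries, against 525, 686 and 842 CPM in Ad-EGFP libraries, and 0 of 6 were called by edgeR, by DESeq2 or at an unadjusted p under 0.05. The 15 markers of T and NK cells summed to 57.3 to 82.9 CPM in Ad-Dyrk1b libraries and 35.5 to 47.6 CPM in Ad-EGFP libraries, and 3 of the 13 tested were higher (edgeR): the granzyme genes Gzmb and Gzma and the T cell receptor gene Trbc2. That is 23.1%, against 7.36% of all genes tested. DESeq2 called 4 of these markers higher, 8 were higher at an unadjusted p under 0.05, and 12 had a log2 fold change above 0. The Kupffer cell and monocyte markers summed to 940.3 to 1143 CPM in Ad-Dyrk1b libraries and 590 to 1159 CPM in Ad-EGFP libraries, which overlap. Of the 9 tested 1, the monocyte gene Ly6c2, was higher (edgeR), or 11.1%, against 7.36% of all genes tested. DESeq2 called 2 of them higher, and 3 were higher at an unadjusted p under 0.05. Their log2 fold changes were above 0 in 7 and below 0 in 2, down to -1.07. In the 6 fits with 1 library left out the call was lost in 4 for Trbc2, 4 for Gzma, 6 for Ly6c2 and 0 for Gzmb. The endothelial markers summed to 233 to 322 CPM in Ad-Dyrk1b and 154 to 237 CPM in Ad-EGFP libraries, with 0 of 10 called by edgeR (DESeq2 1 higher, and 3 higher at an unadjusted p under 0.05). B cell markers summed to 6.47 to 11.3 CPM in Ad-Dyrk1b and 6.02 to 8.55 CPM in Ad-EGFP libraries, with 0 of 4 called by edgeR or DESeq2 and 1 higher at an unadjusted p under 0.05. No marker of these lists was at 0 in all 6 libraries. Without Ad-Dyrk1b replicate 3, the library highest in erythroid markers, 9 histone genes were lower and 0 higher.

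The variant genes gave most of the histone counts. Together the 12 summed to 1031, 886 and 876 CPM in Ad-Dyrk1b libraries, against 1570, 1292 and 1375 CPM in Ad-EGFP libraries, without overlap and at a ratio of means of 0.659. Of the 8 tested, 6 fell and 0 rose by edgeR, against 4.81% and 7.36% of all genes tested. DESeq2 called 0 of the 8 higher, 0 were higher at an unadjusted p under 0.05, and their median log2 fold change was -0.72. Their counts per library ran between 59 for H1f10 and 13192 for H3f3b, and their standard errors ran between 0.11 for H3f3a and 0.28 for H1f10.

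H3f3b and H3f3a encode the same replacement histone H3, which is placed into chromatin outside DNA replication. H3f3b (ENSMUSG00000016559, chr11:116021912-116027962, minus strand) had 467, 377 and 359 CPM in Ad-Dyrk1b libraries, against 732, 636 and 641 CPM in Ad-EGFP libraries. Its highest Ad-Dyrk1b library lay below its lowest Ad-EGFP library. Its log2 fold change was -0.74 ± 0.13 (SE; edgeR adjusted p = 0.00299), a fall to 59.9% of the Ad-EGFP level. H3f3a (ENSMUSG00000060743, chr1:180800832-180813943, minus strand) had 192, 213 and 218 CPM in Ad-Dyrk1b libraries, against 335, 275 and 305 CPM in Ad-EGFP libraries. It too was lower in every Ad-Dyrk1b library than in any Ad-EGFP library, and the log2 fold change was -0.55 ± 0.11 (edgeR adjusted p = 0.00774). Both calls held in all 6 fits that left out 1 library. The pair made 98.3% to 99.0% of all H3 counts in Ad-Dyrk1b libraries and 98.3% to 98.8% in Ad-EGFP libraries. Per length, the FPKM of H3f3b averaged 196 ± 36.7 in Ad-Dyrk1b livers, against 345 ± 20.4 in Ad-EGFP livers, and the FPKM of H3f3a averaged 172 ± 8.81 in Ad-Dyrk1b livers, against 269 ± 28.2 in Ad-EGFP livers, each with its SD over n = 3.

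Both tested variant linker histones fell. H1f0 (ENSMUSG00000096210, chr15:79028450-79030504, plus strand) encodes the linker histone typical of differentiated, non-dividing cells. It had 73.4, 63.2 and 68.4 CPM in Ad-Dyrk1b libraries, against 166, 108 and 116 CPM in Ad-EGFP libraries. The groups did not overlap and the level fell to 52.5% of that in Ad-EGFP livers (log2 fold change -0.93 ± 0.15, edgeR adjusted p = 0.00299), a call that held in all 6 fits with 1 library left out. H1f10 (ENSMUSG00000044927, chr6:87980421-87981637, minus strand), another linker histone expressed outside replication, had 6.94, 3.58 and 3.43 CPM in Ad-Dyrk1b libraries, against 12.8, 8.37 and 8.55 CPM in Ad-EGFP libraries. Replicate 1 of each group stood above its group's other libraries, and the groups did not overlap. Its log2 fold change was -1.08 ± 0.28 (edgeR adjusted p = 0.0318). H1f10 missed the threshold when Ad-Dyrk1b replicate 2 (adjusted p = 0.107 by edgeR) or 3 (0.0850) was left out, and when Ad-EGFP replicate 1 (0.101) or 3 (0.0548) was.

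Of the 4 tested H2A variants 2 fell (edgeR and DESeq2), where 4.81% of all genes tested fell by edgeR. H2aj (ENSMUSG00000060032, chr6:136808244-136810074, plus strand), which in human fibroblasts accumulates in senescence, had 20.2, 17.4 and 19.6 CPM in Ad-Dyrk1b libraries, against 33.5, 27.8 and 33.7 CPM in Ad-EGFP libraries. The log2 fold change was -0.73 ± 0.12 (edgeR adjusted p = 0.00267). H2az2 (ENSMUSG00000041126, chr11:6427229-6444443, minus strand), 1 of a pair of genes for H2A.Z, a variant found at gene starts, had 21.6, 18.5 and 18.8 CPM in Ad-Dyrk1b libraries, against 33.4, 29.0 and 34.0 CPM in Ad-EGFP libraries, a change of -0.71 ± 0.12 (edgeR adjusted p = 0.00263). In both genes the groups were separate, and both calls held with any 1 library left out. On the log2(FPKM + 1) scale the call for H2aj was lost (limma-trend adjusted p = 0.0512), and the gene length implied by its counts and FPKM values ran between 1021 and 1393 bases over the libraries. H2az1, the other H2A.Z gene, had 179, 143 and 140.0 CPM in Ad-Dyrk1b libraries, against 178, 153 and 176 CPM in Ad-EGFP libraries. H2ax, the variant phosphorylated at DNA breaks, had 70.6, 49.8 and 48.9 CPM in Ad-Dyrk1b libraries, against 80.0, 54.7 and 60.2 CPM in Ad-EGFP libraries. The groups overlapped in both, with log2 fold changes of -0.13 ± 0.12 for H2az1 (edgeR adjusted p = 0.501) and -0.20 ± 0.18 for H2ax (edgeR adjusted p = 0.492). H2ax is also the variant whose transcript carries the stem-loop printed above. Whether H2az1 and H2az2 changed by different amounts was not tested.

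**Figure D2:**
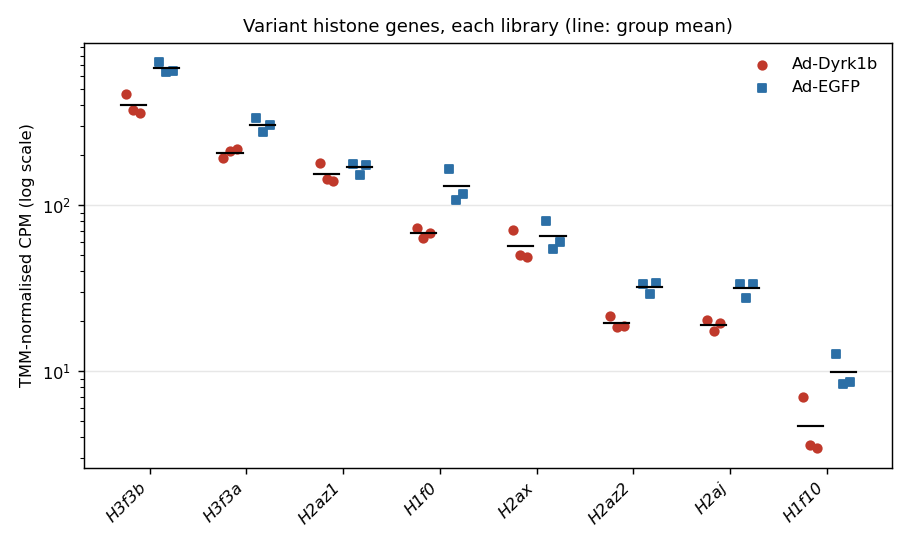
TMM-normalised CPM (log scale) of the 8 tested variant genes in each library, with Ad-Dyrk1b circles left of Ad-EGFP squares and a line at each group mean; heights of different genes are not per length. For H3f3b, H3f3a, H1f0, H2az2, H2aj and H1f10 all circles lie below all squares, while for H2az1 and H2ax the groups overlap.

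Cluster genes were lower as a sum, and 5 of the 22 tested were called. The 67 genes summed to 439.7, 389 and 314 CPM in Ad-Dyrk1b libraries, against 661, 500 and 474 CPM in Ad-EGFP libraries. These groups did not overlap, and the ratio of means was 0.699. Of the 22 tested, 4 fell and 1 rose (edgeR), or 18.2% and 4.55%, against 4.81% and 7.36% of all genes tested, and 17 were not called. The 4 include H2bu2, which passed the filter through the Ad-EGFP libraries alone. The share that rose was below that of all genes. DESeq2 called 7 lower and 1 higher. The log2 fold changes lay between -3.39 for H2bu2 and 0.80 for H2ac19, with a median of -0.55. Without Ad-Dyrk1b replicate 1 that median was -0.74, and without Ad-EGFP replicate 1 it was -0.38. Whether cluster and variant genes differed in their change was not tested. Precision was lower than for the variant genes: standard errors ran between 0.15 for H2aw and 0.86 for H2bc23, which had 16, 9 and 7 counts in Ad-Dyrk1b libraries, against 0, 27 and 14 counts in Ad-EGFP libraries.

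H2bc4 and H1f2 gave 80.0% to 84.4% of the cluster counts in Ad-Dyrk1b libraries and 83.0% to 83.8% in Ad-EGFP libraries. H2bc4 (ENSMUSG00000018102, chr13:23684199-23692908, plus strand) encodes a core H2B and is among the cluster genes reported to make polyadenylated mRNA. It had 260.5, 223 and 180.3 CPM in Ad-Dyrk1b libraries, against 387, 285 and 281 CPM in Ad-EGFP libraries. H1f2 (ENSMUSG00000036181, chr13:23738808-23740367, plus strand), a linker histone gene of the cluster that is also expressed in resting cells, had 111, 96.1 and 71.3 CPM in Ad-Dyrk1b libraries, against 168, 133 and 113 CPM in Ad-EGFP libraries. In both genes every Ad-Dyrk1b library lay below every Ad-EGFP library, yet neither passed the threshold. The log2 fold change was -0.52 ± 0.16 for H2bc4 (edgeR adjusted p = 0.0556) and -0.57 ± 0.18 for H1f2 (edgeR adjusted p = 0.0705). DESeq2 called both lower (adjusted p = 0.0143 for H2bc4 and 0.0140 for H1f2), and the authors' deposited table gives both an adjusted p of 0.016. H2bc4 also passed without Ad-Dyrk1b replicate 1 (edgeR adjusted p = 0.0348), and H1f2 passed with Ad-Dyrk1b replicate 1 left out (0.0453) or with Ad-EGFP replicate 3 left out (0.0465). Without these 2 genes the other 65 cluster genes summed to 68.5, 69.7 and 62.8 CPM in Ad-Dyrk1b libraries, against 107, 82.2 and 80.7 CPM in Ad-EGFP libraries, again without overlap.

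H2aw had the smallest p of all histone genes. It encodes a core H2A in the small cluster of chromosome 11 (ENSMUSG00000078851, chr11:58954685-58956830, plus strand), and it had 7.97, 9.89 and 8.89 CPM in Ad-Dyrk1b libraries, against 20.5, 19.03 and 16.8 CPM in Ad-EGFP libraries. The groups were well apart, and H2aw fell to 47.5% of the Ad-EGFP level (log2 fold change -1.07 ± 0.15, edgeR adjusted p = 0.000707), a call that held with any 1 library left out. H2aw overlaps the gene Trim17, which had 3, 4 and 5 counts in Ad-Dyrk1b libraries and 15, 7 and 6 counts in Ad-EGFP libraries, and the labels and the table state no strand setting for the counting. H2bu2, a core H2B gene of the same cluster (ENSMUSG00000056895, chr11:58948920-58949533, plus strand), had 3, 0 and 2 counts in Ad-Dyrk1b libraries, against 17, 14 and 24 counts in Ad-EGFP libraries. The log2 fold change of H2bu2, -3.39 ± 0.65 (edgeR adjusted p = 0.00556), rests on 5 counts in Ad-Dyrk1b libraries and 55 in Ad-EGFP libraries, and it passed the filter through the Ad-EGFP libraries.

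The other cluster genes that fell were H3c8 and H2bc21. H3c8 (ENSMUSG00000099517, chr13:23535422-23535951, plus strand), a core H3 gene, had 14, 10 and 8 counts in Ad-Dyrk1b libraries, against 41, 39 and 35 counts in Ad-EGFP libraries. It fell to 27.4% of the Ad-EGFP level (log2 fold change -1.87 ± 0.34, edgeR adjusted p = 0.00451), and the call held with any 1 library left out. H3c8 reached the filter level in 1 Ad-Dyrk1b library and in all 3 Ad-EGFP libraries. Of the 50-base windows of its transcript, 54.0% also occur in other genes, so its reads could have been shared with other H3 genes. H2bc21 (ENSMUSG00000068854, chr3:96221119-96223738, plus strand), a core H2B gene reported to make polyadenylated mRNA, had 3.29, 3.96 and 4.47 CPM in Ad-Dyrk1b libraries, against 8.32, 6.29 and 6.39 CPM in Ad-EGFP libraries. The groups did not overlap, and the log2 fold change was -0.84 ± 0.21 (edgeR adjusted p = 0.0234). H2bc21 missed the threshold when Ad-Dyrk1b replicate 1, Ad-Dyrk1b replicate 2 or Ad-EGFP replicate 1 was left out (adjusted p = 0.0843, 0.0655 and 0.0920 by edgeR).

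H2ac19 was the 1 histone gene called higher. It encodes a core H2A on chromosome 3 (ENSMUSG00000063954, chr3:96239749-96240276, minus strand) and had 6.63, 13.3 and 9.18 CPM in Ad-Dyrk1b libraries, against 6.04, 5.20 and 5.44 CPM in Ad-EGFP libraries. Ad-Dyrk1b replicate 2 stood highest and replicate 1 was close to the Ad-EGFP libraries. The log2 fold change was 0.80 ± 0.24 (edgeR adjusted p = 0.0457). H2ac19 missed the threshold when Ad-Dyrk1b replicate 2 (adjusted p = 0.196 by edgeR) or 3 (0.0760) was left out, and when Ad-EGFP replicate 1 (0.0857), 2 (0.117) or 3 (0.116) was. Every 50-base window of its transcript also occurs in other genes, among them its neighbour H2ac18, whose stem-loop site has the same letters as the one printed. H2ac18 had 14.1, 9.20 and 12.9 CPM in Ad-Dyrk1b libraries, against 16.2, 9.46 and 11.3 CPM in Ad-EGFP libraries, a change of -0.03 ± 0.22 on the log2 scale (edgeR adjusted p = 0.945). Summed, the pair had 20.7, 22.5 and 22.1 CPM in Ad-Dyrk1b libraries, against 22.2, 14.7 and 16.7 CPM in Ad-EGFP libraries, and these overlap. The split between the copies is uncertain, because no source used here says how reads matching both were counted.

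The other cluster genes of the named set were not called. H4c9, a core H4 gene, had 3.39, 3.21 and 4.18 CPM in Ad-Dyrk1b libraries, against 7.04, 4.21 and 6.72 CPM in Ad-EGFP libraries, a change of -0.74 ± 0.25 on the log2 scale (edgeR adjusted p = 0.0682) that passed the threshold on log2(FPKM + 1) (limma-trend adjusted p = 0.0413) and without Ad-EGFP replicate 2 (edgeR adjusted p = 0.0280). H3c14, a core H3 gene, had 3.24, 5.83 and 2.61 CPM in Ad-Dyrk1b libraries, against 9.48, 5.96 and 5.89 CPM in Ad-EGFP libraries, a change of -0.86 ± 0.31 (edgeR adjusted p = 0.0895) that DESeq2 called lower (adjusted p = 0.0433) and that passed without Ad-Dyrk1b replicate 2 (edgeR adjusted p = 0.0218). For both genes the groups were separate, by a small gap. Every 50-base window of the H3c14 transcripts also occurs in other genes, among them H3c15. Summed, H3c14 and H3c15 had 6.32, 7.43 and 4.12 CPM in Ad-Dyrk1b libraries, against 13.1, 8.59 and 7.61 CPM in Ad-EGFP libraries. These sums were separate by a small gap, and the summed raw counts overlapped. The core H4 gene H4c8 (-0.41 ± 0.27) and the core H2B gene H2bc9 (-0.33 ± 0.25) were separate too and not called. The core H2B gene H2bc24 (-1.02 ± 0.52), with 9, 9 and 6 counts in Ad-Dyrk1b libraries against 28, 10 and 10 counts in Ad-EGFP libraries, and the linker gene H1f5 (-0.98 ± 0.60), with 11, 5 and 1 counts in Ad-Dyrk1b libraries against 14, 9 and 10 counts in Ad-EGFP libraries, show how few reads lay behind several large values. H2bc24, like H2bu2, passed the filter through the Ad-EGFP libraries. The core H3 genes H3c15 (-0.35 ± 0.36) and H3c3 (-0.11 ± 0.47) and the core H2A gene H2ac6 (0.16 ± 0.26) had overlapping groups. Of the 30 genes tested, 7 shared 50% or more of their 50-base windows with other genes, so that reads could have been divided between copies.

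**Figure D3:**
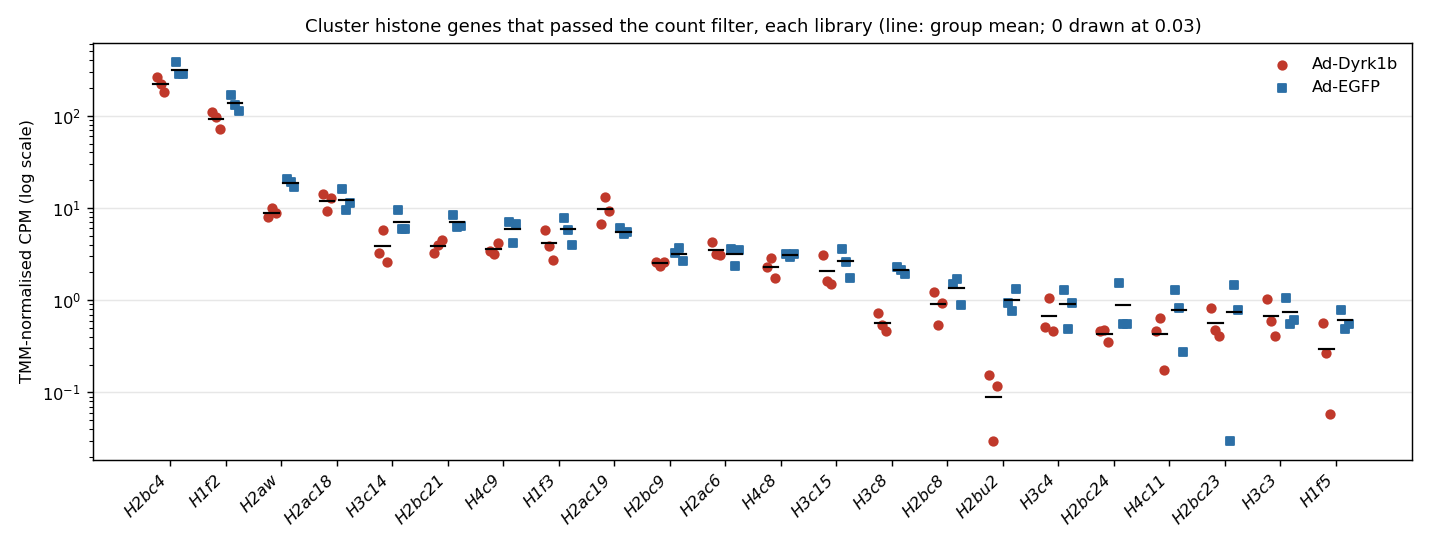
TMM-normalised CPM (log scale, a count of 0 drawn at 0.03) of the 22 tested cluster genes in each library, with Ad-Dyrk1b circles left of Ad-EGFP squares and a line at each group mean; heights of different genes are not per length. H2bc4 and H1f2 stand far above the rest. All circles lie below all squares in 11 genes, among them the 4 called lower, H2aw, H3c8, H2bu2 and H2bc21. H2ac19 is the gene with all circles above all squares.

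**Figure D4:**
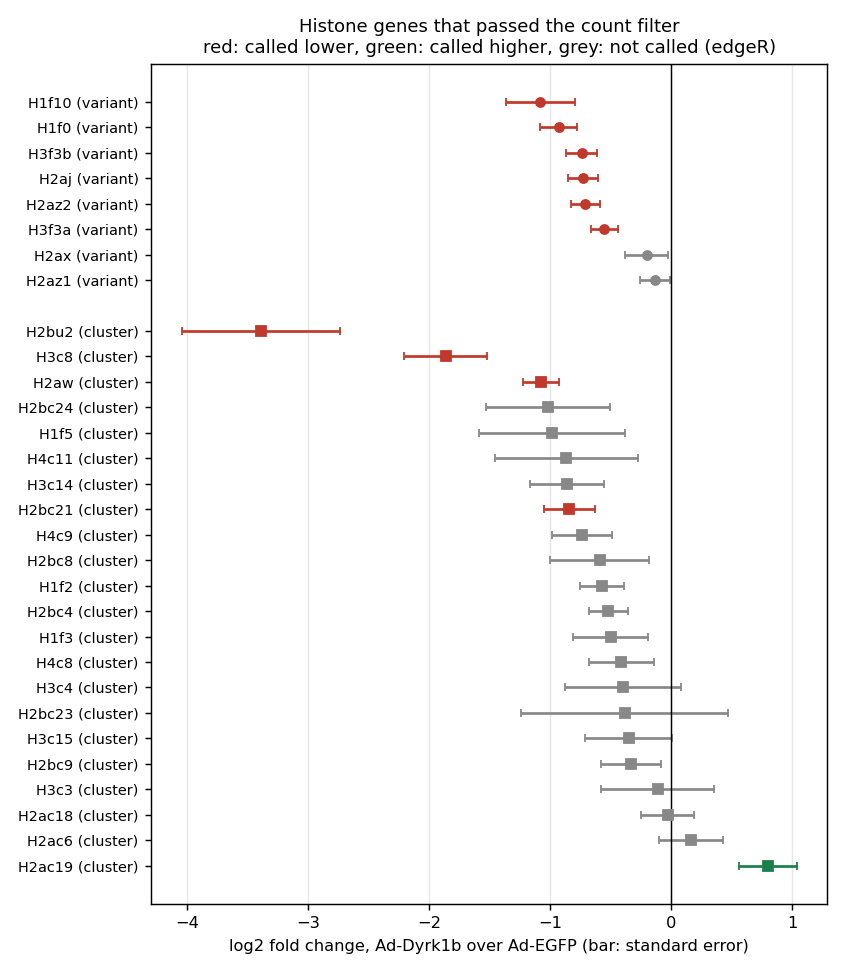
Log2 fold change, Ad-Dyrk1b over Ad-EGFP, with its standard error for the 30 tested histone genes, variant genes above and cluster genes below, coloured by the edgeR call. The 6 called variant genes lie between -1.08 and -0.55 with short bars, while cluster genes spread between -3.39 and 0.80 with bars of very unequal length.

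By protein family, the mean CPM sum was lower in Ad-Dyrk1b livers in each of the 8 sets, with unequal gaps. Variant H3 genes summed to 659, 590.3 and 577 CPM in Ad-Dyrk1b libraries, against 1066, 911 and 946 CPM in Ad-EGFP libraries, and variant H1 genes to 80.4, 66.8 and 71.8 CPM in Ad-Dyrk1b libraries, against 179, 116 and 125 CPM in Ad-EGFP libraries. Both were separate. Variant H2A genes summed to 291, 229 and 227 CPM in Ad-Dyrk1b libraries, against 325, 265 and 304 CPM in Ad-EGFP libraries, and these overlapped. Among cluster genes the ratio of mean sums, Ad-Dyrk1b over Ad-EGFP, was 0.591 for H3, 0.674 for H4, 0.675 for H1, 0.695 for H2B and 0.862 for H2A, and in all 5 families the CPM sums of the groups did not overlap. Single genes gave much of several of these sums. Of the mean cluster H2A sum, 35.6 CPM in Ad-Dyrk1b and 41.3 CPM in Ad-EGFP libraries, H2aw gave 8.92 and 18.8 CPM. The rest of the mean cluster H2A sum was thus higher in Ad-Dyrk1b than in Ad-EGFP libraries, so the lower total rested on H2aw. Sums without H2aw were not compared library by library. In Ad-Dyrk1b and Ad-EGFP libraries, H1f2 gave 92.7 of 97.7 and 137.6 of 144.7 CPM of the cluster H1 means. H2bc4 gave 221.3 of 231.2 and 317.5 of 332.9 CPM of the H2B means. The cluster H2A result also depended on the scale: the sum of FPKM was 45.3, 46.2 and 46.3 in Ad-Dyrk1b libraries, against 53.5, 40.5 and 43.2 in Ad-EGFP libraries, and overlapped.

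**Figure D5:**
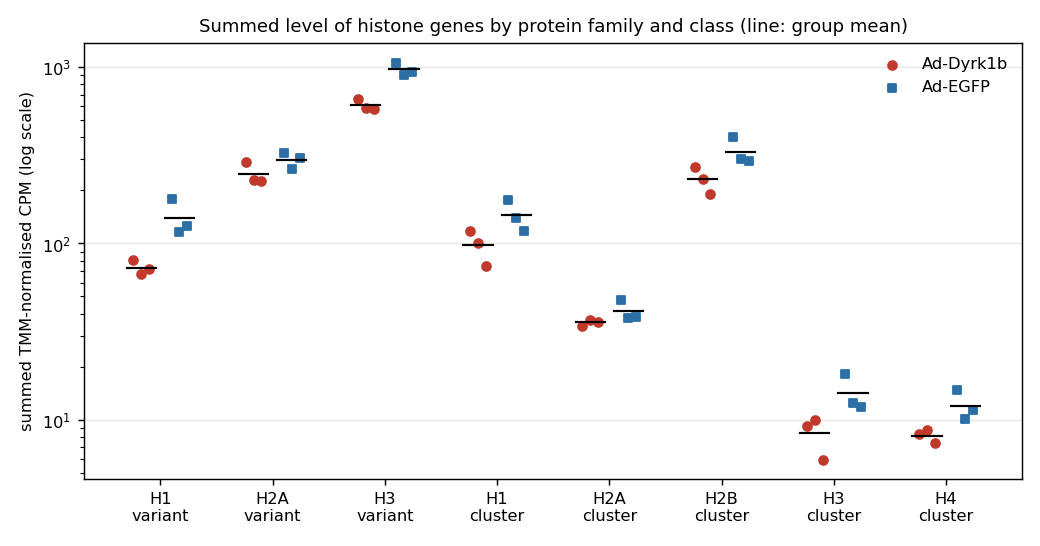
Summed TMM-normalised CPM (log scale) of histone genes in each library, by protein family and class, with Ad-Dyrk1b circles left of Ad-EGFP squares and a line at each group mean. Variant H3 shows the highest sums, at 577 to 659 CPM in Ad-Dyrk1b and 911 to 1066 CPM in Ad-EGFP libraries, and variant H2A is the set whose groups overlap.

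Cluster genes were also set side by side by the annotated end of their transcript. The 28 genes whose transcript ran on 100 or more bases past the stem-loop or carried a poly(A) signal summed to 153.5, 139 and 108 CPM in Ad-Dyrk1b libraries, against 244, 194 and 171 CPM in Ad-EGFP libraries. Of their 16 tested members 3 fell and 0 rose (edgeR, DESeq2 0 higher, and 0 higher at an unadjusted p under 0.05). That is 18.8% lower, against 4.81% of all genes tested, where 7.36% were higher. The 3 include H2bu2, which passed the filter through the Ad-EGFP libraries alone. The 21 genes whose transcript stopped near the stem-loop summed to 24.4, 25.6 and 25.2 CPM in Ad-Dyrk1b libraries, against 28.5, 19.3 and 21.1 CPM in Ad-EGFP libraries. The first sums were separate and the second overlapped. Few genes gave most of either sum. Within the first, H1f2 had 111, 96.1 and 71.3 CPM in Ad-Dyrk1b libraries, against 168, 133 and 113 CPM in Ad-EGFP libraries. Within the second, H2ac18 and H2ac19, whose split is uncertain, had 20.7, 22.5 and 22.1 CPM in Ad-Dyrk1b libraries, against 22.2, 14.7 and 16.7 CPM in Ad-EGFP libraries. Of the second mean sum, 25.06 CPM in Ad-Dyrk1b and 22.97 CPM in Ad-EGFP libraries, this pair gave 21.75 and 17.87 CPM. The rest of the second sum was thus lower on average in Ad-Dyrk1b libraries, as the first sum was. The higher mean of the second sum in Ad-Dyrk1b libraries therefore came from this pair. Sums without these genes were not compared library by library. Of the 4 members tested in the second set, H3c8 fell and H2ac19 rose (edgeR), or 25.0% each, against 4.81% and 7.36% of all genes tested. Of the 18 genes with neither feature, H2bc4 and H1f5 were tested. The difference between these sets was not tested, and few genes of the second set had enough counts to enter the fit.

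Histone genes often lie in divergent pairs, and 14 such pairs with starts within 1000 bases of each other were annotated. In 1 pair both genes were tested: H2ac6 and H2bc4, 251 bases apart, start at the ends of the window printed for H2ac6. H2ac6 had 4.32, 3.15 and 3.08 CPM in Ad-Dyrk1b libraries, against 3.60, 2.35 and 3.50 CPM in Ad-EGFP libraries, beside the values of H2bc4 given above. Whether the members of that pair changed by different amounts was not tested. In the pair of H2ac20 and H2bc21, 239 bases apart, H2ac20 had 1 count over all libraries and H2bc21 had 595. H2aw starts 173 bases from the pseudogene H2bu1-ps, which had 0 counts in every library, whereas H2aw had 1513. In 6 pairs 1 gene was tested and in 7 neither was.

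Genes that act with histones were taken from 4 lists. Of 30 genes of DNA synthesis 6 fell and 0 rose (edgeR, DESeq2 0 higher, and 1 higher at an unadjusted p under 0.05), or 20.0% lower against 4.81% of all genes tested. Their log2 fold changes were below 0 in 21 and above 0 in 9, with a median of -0.20. They summed to 1110, 1066 and 1225 CPM in Ad-Dyrk1b libraries, against 1259, 1215 and 1238 CPM in Ad-EGFP libraries, which overlap. Mcm5, a subunit of the replicative helicase, fell by 0.61 ± 0.11 on the log2 scale (edgeR adjusted p = 0.00467) to 21.3 ± 1.59 CPM in Ad-Dyrk1b livers, against 32.6 ± 1.91 CPM in Ad-EGFP livers (SD over n = 3). Mcm7, another subunit, fell by 0.49 ± 0.10 (edgeR adjusted p = 0.00897), and both calls held with any 1 library left out. Rfc4, of the clamp loader, fell by 0.73 ± 0.17 (edgeR adjusted p = 0.0165), a call lost when Ad-Dyrk1b replicate 1 or 3 was left out (adjusted p up to 0.0520). Mcm4, also of the helicase, fell by 0.41 ± 0.12 (edgeR adjusted p = 0.0375), and its call was kept without Ad-Dyrk1b replicate 3 and lost in the other 5 such fits (up to 0.131).

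Mitosis genes summed to 983, 840.2 and 572 CPM in Ad-Dyrk1b libraries, against 1250, 974 and 845 CPM in Ad-EGFP libraries, which overlap. Of these 20 genes 0 were called by edgeR, 3 were lower by DESeq2 and 5 were lower at an unadjusted p under 0.05, and the median log2 fold change was -0.39. Prc1, of the central spindle, had the smallest p (-0.60 ± 0.20, edgeR adjusted p = 0.0816), followed by the spindle gene Nusap1 (-0.67 ± 0.22), the mitotic kinase gene Cdk1 (-0.52 ± 0.19) and the checkpoint gene Bub1b (-0.45 ± 0.18).

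Of 17 genes for the transcription and 3′ processing of histone mRNA, 2 fell and 0 rose (edgeR, DESeq2 0 higher, and 1 higher at an unadjusted p under 0.05), or 11.8% lower against 4.81% of all genes tested. Cpsf3, the nuclease that cuts histone and other pre-mRNAs, fell by 0.38 ± 0.10 (edgeR adjusted p = 0.0311), and Pou2f1, which binds the octamer, fell by 0.59 ± 0.17 (edgeR adjusted p = 0.0433). Each of these calls was kept in 1 of 6 fits with 1 library left out, that without Ad-EGFP replicate 2 for Cpsf3 and that without Ad-Dyrk1b replicate 1 for Pou2f1 (adjusted p in the others up to 0.123 and 0.147). The cleavage factor gene Cstf2 (-0.34 ± 0.11) and Upf1, which acts in the decay of histone mRNA (-0.27 ± 0.10), were not called. Slbp, which encodes the protein that binds the printed stem-loop, averaged 69.7 CPM in Ad-Dyrk1b and 66.5 CPM in Ad-EGFP livers, a change of 0.07 ± 0.10 on the log2 scale (edgeR adjusted p = 0.702). Npat, a coactivator of cluster genes, changed by -0.37 ± 0.21 (edgeR adjusted p = 0.268). Slbp and Npat were named after their values were seen.

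Of 27 histone chaperone and deposition genes, 1 fell and 0 rose (edgeR, DESeq2 0 higher, and 0 higher at an unadjusted p under 0.05), with a median log2 fold change of -0.19. The share called lower, 3.7%, was no higher than the 4.81% of all genes tested. That gene was Chaf1a, a subunit of the complex that places H3 and H4 behind the replication fork, at 14.1 ± 0.668 CPM in Ad-Dyrk1b and 20.7 ± 2.32 CPM in Ad-EGFP livers (SD over n = 3; log2 fold change -0.55 ± 0.13, edgeR adjusted p = 0.0180). Chaf1a missed the threshold when replicate 2 or 3 of Ad-Dyrk1b, or replicate 3 of Ad-EGFP, was left out (adjusted p up to 0.0704). Atrx, which places replacement H3 at repeats (-0.41 ± 0.13), the FACT subunit gene Supt16 (-0.28 ± 0.10) and Hjurp, the chaperone of the centromeric H3 (-0.35 ± 0.13), were not called.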

How the data were processed

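RNA of 6 liver samples was sequenced after mRNA enrichment and library preparation with a NEBNext Ultra kit, per the labels' protocols. The authors deposited 1 table with whole-number counts per gene and library, not normalized, per the file headers. It also holds the authors' FPKM values, their mean FPKM per group, the log2 ratio of the 2 means, p-values and adjusted p-values, per the file headers. The submitters' processing notes name mm10 and DESeq2. The aligner, the counting tool, the strand setting and the handling of reads that match several genes were not in the sources used here.

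Groups came from the treatment label. Counts were fitted over all genes with edgeR 4.0.16 (R 4.3.3): TMM scaling, filterByExpr (minimum count 10, minimum total 15), a robust quasi-likelihood fit, a two-sided F-test and Benjamini-Hochberg adjustment over 13201 genes, with calls at an adjusted p under 0.05. The value after ± is a standard error beside a log2 fold change and an SD beside a mean. CPM were computed from counts with TMM-scaled totals. Of 22274 genes 5089 had no count.

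Cluster genes are those whose GENCODE M21 symbol begins with Hist, without pseudogenes. The named genes were Dyrk1b, the called histone genes, the tested variants, the 10 tested cluster genes highest in FPKM, the 5 with the largest and the 5 with the smallest log2 fold change, and up to 4 genes of smallest p per other list. H2bc23 and H2bc8 are histone genes that the same rule allows. The members, the lists and this rule were chosen with earlier results of these data known. Alternatives were DESeq2 1.42.0, RLE scaling, no filter, limma-trend 3.58.1 on log2(FPKM + 1) and log2(FPKM + 0.1) for a mean FPKM of 0.1 or more, a replicate block, and each library left out. The fit was checked on simulated counts. Floors of 3 counts cover counting error only.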

Additional observations from a re-analysis of the deposited data

How the results depend on the processing

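Over all genes, 548 and 552 were higher with limma-trend on log2(FPKM + 0.1) and log2(FPKM + 1), and with 1 library left out 612 to 800 were higher and 294 to 461 lower. Of the histone genes, 0 were higher in both FPKM fits and 0 to 1 with 1 library left out. The count of lower histone genes was 10 in both FPKM fits, 13 with DESeq2, 11 without a filter and 8 to 11 with 1 library left out. The median log2 fold change of cluster genes was -0.74 to -0.38 with 1 library left out, and that of variant genes -0.78 to -0.67. Direction changed in 4 genes that were not called: H2ac18 (-0.19 to 0.22), H2ac6 (-0.016 to 0.27), H3c3 (-0.55 to 0.23) and H2bc23 (-0.97 to 0.55) over the fits with 1 library left out, and H2bc23 also with limma-trend on log2(FPKM + 0.1), at 0.16. The cause of these changes was not tested. H2bc4 passed the threshold without a filter (edgeR adjusted p = 0.0386). With the replicate number as a block, 1109 genes were higher and 774 lower, 12 histone genes were lower and 0 higher, and the medians were -0.55 for cluster and -0.72 for variant genes. Under the block H2bc4 (edgeR adjusted p = 0.0105) and H1f2 (0.00463) were called and H2ac19 was not (0.0605). Libraries with the same number correlated at 0.02, 0.17 and 0.11 in their deviations from the group mean, so the numbers were not taken as pairs. These correlations cover all genes tested and not the histone genes alone. In H2bc4 and H1f2 the replicates stood in the same order in both groups, and a shared effect of replicate number was not tested. Depth limits the 51 histone genes that were not tested, whose totals over 6 libraries were at most 51 counts.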

Other observations

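Histone genes with other symbols were read from a list of 3. Macroh2a1 and Macroh2a2, which encode the macroH2A variants, averaged 89.7 ± 8.36 and 1.78 ± 0.298 CPM in Ad-Dyrk1b livers, against 100.2 ± 8.38 and 1.88 ± 0.776 CPM in Ad-EGFP livers (SD, n = 3 each). Cenpa, the centromeric H3, averaged 25.4 ± 5.08 CPM in Ad-Dyrk1b livers, against 28.6 ± 5.17 CPM in Ad-EGFP livers. The list had 0 genes called by edgeR, by DESeq2 or at an unadjusted p under 0.05, with log2 fold changes of -0.16 ± 0.11 for Macroh2a1, -0.08 ± 0.35 for Macroh2a2 and -0.17 ± 0.16 for Cenpa. Of the variant genes that were not tested, H2ap had 1, 0 and 0 counts in Ad-Dyrk1b libraries, against 4, 1 and 3 counts in Ad-EGFP libraries, H1f8 had 1 count over all libraries, and the germ cell genes H1f7 and H1f9 had 0. The untested member with the most reads was H2bc6, a core H2B gene, with 8, 9 and 11 counts in Ad-Dyrk1b libraries, against 8, 10 and 5 counts in Ad-EGFP libraries.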
